A study of Mus musculus with 8 samples.

Results

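The C/EBP transcription factors and the Trib pseudokinases that control them were examined in multipotent progenitors (MPPs), short-lived progenitors of the bone marrow from which every blood lineage can arise. The members were fixed by name as Cebpa, Cebpb, Cebpd, Cebpe, Cebpg, Cebpz, Trib1 and Trib2, and all 8 were found among the 37980 gene rows of the table. RNA was sequenced from 4 NA libraries and 4 wild-type (WT) libraries, each made from an aliquot of 1000 sorted cells, and libraries carry a group name and a number (NA1 to NA4, WT1 to WT4). MPPs were sorted from C57BL/6 bone marrow as Lin-CD48-ckit+Sca1+CD135+CD150- cells in both groups. NA mice carried NUP98-HOXA10hd, a fusion of a segment of the nuclear pore protein NUP98 with the HOXA10 homeodomain, as NA LSL/+; Vav-Cre. The fusion was expressed from the Rosa26 locus after Vav-Cre removed a stop cassette, so it was active in blood cells from early development and in stem cells before they formed MPPs. WT MPPs came from mice without the fusion. Whether the WT mice carried Vav-Cre, the ages of the animals and the number of animals behind each aliquot were not given in the sources used here, so p-values measure the spread between libraries. The comparison of NA with WT MPPs addresses how transcripts of this family differ when MPPs express the fusion.

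C/EBP proteins are basic leucine zipper (bZIP) factors that bind DNA as dimers, with each other or with other bZIP proteins. C/EBPα drives the commitment of progenitors to granulocytes and monocytes and restrains the cell cycle, C/EBPβ takes over when granulocytes are needed quickly, and C/EBPε acts late, when granules are filled. TRIB1 and TRIB2 are kinase-like proteins without normal catalytic activity that bring C/EBPα to the ubiquitin ligase COP1 for degradation, and high TRIB activity can cause acute myeloid leukaemia in mice.

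In the NA MPPs, Cebpa was lower and both Cebpb and Cebpg were higher than in the WT MPPs. Of the 8 members, 6 passed the filter on low values and 3 of these were called by limma at an adjusted p below 0.05, with 2 higher and 1 lower. Over all 11451 genes tested, 17.9% were called, 10.1% as higher and 7.87% as lower. None of the 3 calls held without NA4 and WT4 (adjusted p of 0.229 for Cebpa, 0.114 for Cebpb and 0.116 for Cebpg by limma). Cebpa and Cebpb also lost their calls in 5 and 6 of the 8 fits that left out 1 library. Trib1, Trib2 and Cebpz were not called. Cebpd and Cebpe lay near the limit of detection and were not tested. The median log2 fold change of the 6 members was 0.31, against -0.011 over all genes tested.

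The promoter sequences of the 3 called members are shown because these genes moved in opposite directions. Each run is the 250 bases before the RefSeq transcript start in GRCm38.p6, read 5′ to 3′ on the strand of the gene, and capitals mark the motif matches described below. The windows lie at chr7:35119043-35119292 (plus strand) for Cebpa, chr2:167688665-167688914 (plus strand) for Cebpb and chr7:35056567-35056816 (minus strand) for Cebpg.
Cebpa: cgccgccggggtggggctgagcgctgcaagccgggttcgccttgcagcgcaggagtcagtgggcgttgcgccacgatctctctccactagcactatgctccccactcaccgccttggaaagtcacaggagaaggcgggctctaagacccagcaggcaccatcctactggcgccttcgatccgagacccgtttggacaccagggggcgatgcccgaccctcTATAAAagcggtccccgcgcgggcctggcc
Cebpb: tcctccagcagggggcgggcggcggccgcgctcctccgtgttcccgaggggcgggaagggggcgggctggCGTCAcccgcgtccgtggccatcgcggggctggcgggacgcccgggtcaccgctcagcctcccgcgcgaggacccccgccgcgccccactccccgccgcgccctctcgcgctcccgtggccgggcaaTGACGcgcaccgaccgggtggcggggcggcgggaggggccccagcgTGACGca
Cebpg: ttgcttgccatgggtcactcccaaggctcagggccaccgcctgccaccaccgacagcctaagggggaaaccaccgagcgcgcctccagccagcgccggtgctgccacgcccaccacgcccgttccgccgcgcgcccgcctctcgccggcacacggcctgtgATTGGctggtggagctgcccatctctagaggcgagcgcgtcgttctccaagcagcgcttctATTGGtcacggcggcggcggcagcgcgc

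The 3 promoters were rich in GC and differed in their core motifs. GC content was 66.4% for Cebpa, 81.6% for Cebpb and 70.8% for Cebpg, against a median of 52.4% over the 32851 windows of all genes. CpG dinucleotides numbered 22, 41 and 29 in the same order, against a median of 6. None of the windows held a match on either strand to an AP-1 site (TGANTCA), a full CRE (TGACGTCA), a C/EBP site (TTGCNNAA), an EGR site (GCGTGGGCG) or an ETS site (CCGGAAGT), which occurred in 6.75%, 1.55%, 9.56%, 0.536% and 2.88% of all windows. The other motifs were chosen after the windows had been read. The Cebpa window held a TATA box (TATAAA) that starts 30 bases before the transcript start, as did 12.4% of all windows at any position. The Cebpb window held the CRE half-site TGACG at 53 and 7 bases before the start and its complement at 180 bases, and 17.8% of all windows held this half-site at least once. The CRE half-site is part of the full CRE, which the Cebpb window did not hold. The Cebpg window held the CCAAT box on the opposite strand at 89 and 28 bases before the start, and 33.9% of all windows held one. A window was also found for Trib2, with a GC content of 73.6% and none of these matches. Windows for Cebpd, Cebpe, Cebpz and Trib1 were not analysed here.

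Several properties of the libraries bear on every comparison. Estimated depth lay between 3876906 and 4916987 reads per library, with NA4, WT2 and WT3 the shallower ones. NA4 and WT4 were unusually close to a weighted sum of the other 3 libraries of their group, leaving 0.0685 (WT4) and 0.202 (NA4) of the variance that an independent library would leave. The same ratio was 0.231 for WT1, 0.4 for NA2 and between 1.13 and 1.72 for the other libraries. Without NA4 and WT4 524 genes were called instead of 2053. Xist lay between 0.94 and 2.8 normalised counts in the NA libraries and between 868.6 and 1285 in the WT libraries, while the Y-linked gene Eif2s3y lay between 516.2 and 666.5 in NA and at no more than 0.888 in WT. Sex and genotype therefore cannot be told apart. Of the genes of the positive sort markers, Kit lay between 1103 and 1490 and Flt3 (CD135) between 1274 and 1498 normalised counts. Ly6a (Sca1) was present in every library but lower in NA, at 1221 to 1408 against 1482 to 1614 in WT (log2 fold change -0.28, adjusted p = 0.0257 by limma). This call did not hold without NA4 and WT4 (adjusted p = 0.163 by limma) or in 6 of the 8 fits that left out 1 library. Cd34, a progenitor gene outside the sort, lay between 3239 and 3854. Some lineage markers were at 0 in all libraries. They included Ly6g, Mmp8 and Retnlg of neutrophils, Alas2 of erythroid cells, Pax5 and Ms4a1 of B cells and Cd3d, Cd3e, Cd3g and Cd8a of T cells. Other markers of these lineages were present. B lineage markers summed to 100.6 to 239 normalised counts in NA and 182.2 to 269 in WT, mostly Cd79b. T and NK markers summed to 137 to 160.6 in NA and 128.7 to 148.4 in WT, mostly Nkg7. Megakaryocyte markers summed to 205.5 to 287.5 in NA and 216.3 to 289.9 in WT. Neutrophil and erythroid sums are given below.

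Cebpa encodes the factor that sets up the granulocyte and monocyte programme (chr7:35119293-35121928, plus strand, GRCm38). Its normalised counts were 41.1, 32.9, 14.8 and 24.8 in NA1 to NA4 and 56.8, 66.8, 43.3 and 68.4 in WT1 to WT4. All NA libraries were below all WT libraries, and the gap between NA1 and WT3 was small. The means were 28.4 ± 11.2 (SD, n = 4) and 58.8 ± 11.6 (SD, n = 4), a 2.13-fold lower level in NA with a log2 fold change of -1.09 ± 0.33 (SE) and an adjusted p of 0.0324 by limma. In estimated reads these values were 16 to 44 in NA and 38 to 77 in WT, so counting error is a sizeable part of the spread. In RNA from sorted pools, fewer cells that express a gene and less RNA per cell cannot be told apart. The call rests on the libraries used: the adjusted p rose to 0.229 without NA4 and WT4, 5 of the 8 fits that left out 1 library gave no call, and without NA3 the log2 fold change was -0.82. A correction for the GC content of transcripts gave -0.86 with an adjusted p of 0.0703.

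Levels of monocyte markers were compared beside Cebpa. The summed level of 8 monocyte and macrophage markers was 13.9 to 55.1 normalised counts in NA and 79.0 to 88.8 in WT, and 1 of the 8 passed the filter. Most of this sum was Cd68, the marker tested, at 8.31 to 43.9 in NA and 42.1 to 58.9 in WT. Its groups overlapped and it was not called (adjusted p = 0.12 by limma), while Csf1r stayed at or below 12.4 and Adgre1 at or below 6.8 in all libraries. Ccr2 and Fcgr1 were at 0 in every NA library. Erythroid markers summed to 35.4 to 64.9 in NA and 138 to 224 in WT, nearly all of it Hbb-bt. Neutrophil markers summed to 12.2 to 29.6 in NA and 11.3 to 316.5 in WT, with the highest values in WT3 (316.5) and WT4 (95), which had the lowest and the highest Cebpa of the WT group. The part of these cells in the Cebpa difference was not tested.

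Cebpb encodes C/EBPβ, whose single mRNA gives rise to activating and inhibitory forms of the protein by the choice of start codon (chr2:167688915-167690418, plus strand, 1 exon). Its normalised counts were 67.2, 124.1, 169.9 and 88.6 in NA1 to NA4 and 10.7, 80.4, 44.4 and 40.8 in WT1 to WT4. The groups overlapped at one point, where WT2 exceeded NA1, and WT1 stood far below the rest with 12 estimated reads. The mean was 112.4 ± 44.9 (SD, n = 4) in NA and 44.1 ± 28.6 (SD, n = 4) in WT, a log2 fold change of 1.54 ± 0.47 (SE) with an adjusted p of 0.0352 by limma. Leaving out WT1 reduced the log2 fold change to 0.99 and ended the call, and 6 of the 8 fits without 1 library gave no call. Without NA4 and WT4 the log2 fold change was 1.69 with an adjusted p of 0.114, and without WT1 as well it was 0.9 with an adjusted p of 0.279. The data cannot tell which protein form was made.

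The ratio of Cebpb to Cebpa, which weighs the factors of rapid and steady granulocyte production against each other, did not overlap between the groups. The log2 ratio of Cebpb to Cebpa was 0.70, 1.88, 3.44 and 1.80 in NA1 to NA4 and -2.31, 0.26, 0.04 and -0.73 in WT1 to WT4. The lowest NA value lay above the highest WT value, and NA3 and WT1 formed the extremes. The groups differed by 2.64 in the mean (exact two-sided permutation p = 0.0286, the smallest that 70 assignments can give, and 0.0857 after Benjamini-Hochberg adjustment over 3 ratios). In WT MPPs the mean log2 ratio was -0.69 ± 1.16 (SD, n = 4), and in NA MPPs it was 1.95 ± 1.13 (SD, n = 4).

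Cebpg encodes a small bZIP protein that lacks a classical activation domain and works as a dimer partner of other C/EBP and ATF proteins (chr7:35046422-35056573, minus strand). Its normalised counts were 272.6, 312.1, 235.4 and 291.7 in NA1 to NA4 and 213.1, 188.0, 152.6 and 187.3 in WT1 to WT4. No NA library fell to the WT range, and both groups were tight. The means of 278 ± 32.6 and 185.2 ± 24.9 (SD, n = 4 each) gave a 1.5-fold higher level in NA, with a log2 fold change of 0.59 ± 0.14 (SE) and an adjusted p of 0.0117 by limma. Cebpg remained called in all 8 fits that left out 1 library, with log2 fold changes from 0.50 to 0.66. Without NA4 and WT4 the log2 fold change was 0.57 but the adjusted p was 0.116.

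Cebpg and Cebpa are neighbours on chromosome 7, with 62.7 kb between their nearest ends, and they moved in opposite directions. They were the 2 members whose groups did not overlap, a pattern found in 22% of all genes tested. Pepd, which lies 1714 bases from Cebpg on the other side, was at 159.6 to 233.9 normalised counts in NA and 175.8 to 216.3 in WT, with a log2 fold change of 0.07 and an adjusted p of 0.766 by limma.

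Cebpz, named for binding a CCAAT element, is not a bZIP protein and works in the nucleolus in ribosome production (chr17:78919006-78937066, minus strand). It was the steadiest member, with 472.3, 452.1, 458.0 and 479.5 normalised counts in NA1 to NA4 and 477.6, 484.7, 359.8 and 511.4 in WT1 to WT4. WT3 was the lowest library, and the other 7 lay within the range from 452.1 to 511.4. The log2 fold change was 0.03 with a 95% interval from -0.22 to 0.28, and the adjusted p by limma was 0.868. The sign turned with scaling by total counts (-0.03), after GC correction (-0.06) and without WT3 (-0.08).

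**Figure D1:**
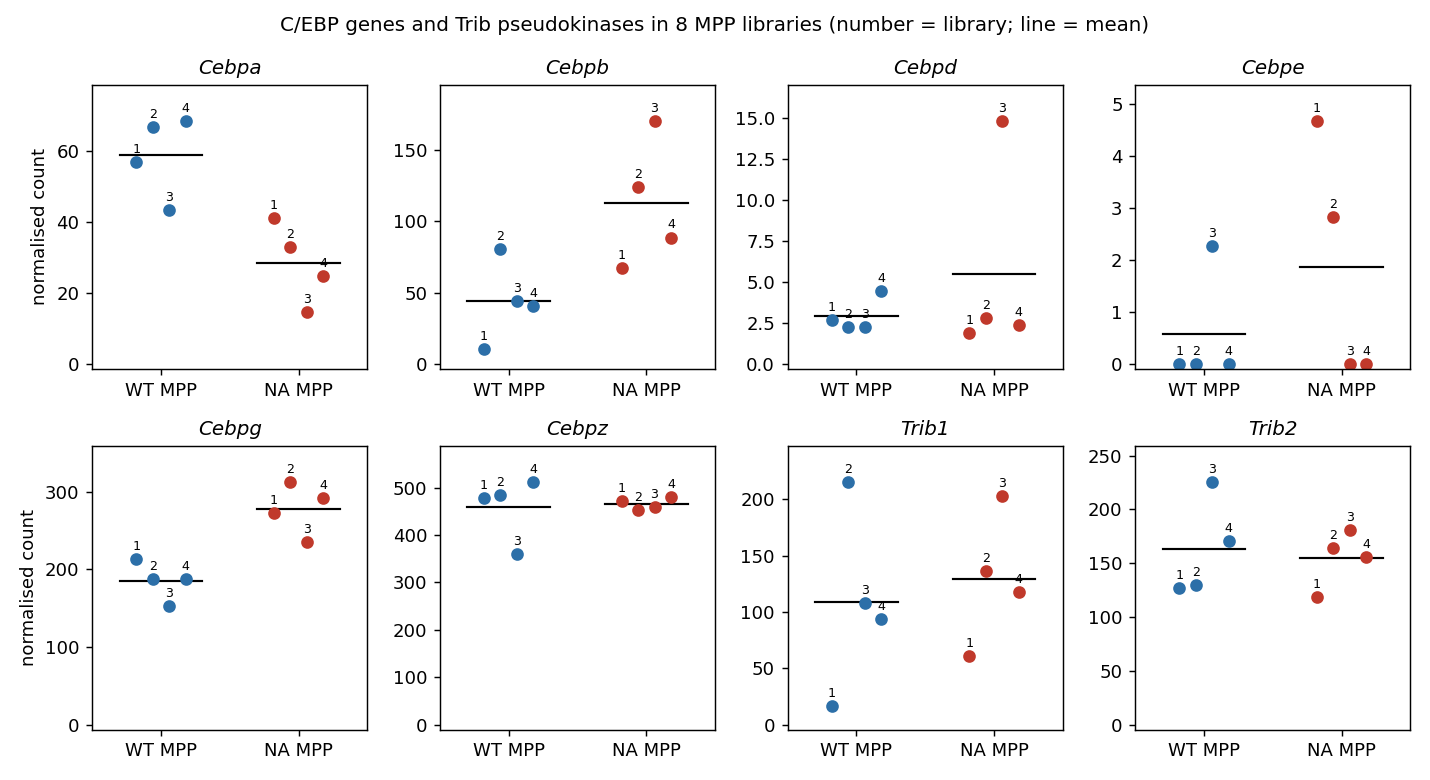
Normalised counts (vertical axis, starting at 0, a separate scale for each gene) of the 8 members in the 4 WT and 4 NA MPP libraries. Each point is a library marked with its number and each line is the group mean. Cebpa and Cebpg separate the groups, WT1 is the lowest point for Cebpb and Trib1, and Cebpd has a single raised library, NA3.

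Cebpd, a gene of the acute inflammatory response (chr16:15887286-15891031, plus strand), was barely detected. It was at 1.9, 2.8, 14.8 and 2.4 normalised counts in NA1 to NA4 and at 2.7, 2.3, 2.3 and 4.4 in WT1 to WT4. NA3 alone stood out, with 16 estimated reads against 2 to 5 in the other libraries. A count of 0 allows up to 3 reads, or 2.66 to 3.54 normalised counts, so the other libraries lay near this limit, which covers counting error only. The log2 ratio of Cebpd to Cebpa differed by 1.46 between the groups (exact two-sided permutation p = 0.0857, adjusted p = 0.129 over 3 ratios), and it was 0 in NA3 and between -4.38 and -2.94 in the other 7. Without NA3 the difference was 0.62. Because Cebpd lay near the limit in those 7 libraries, the ratio cannot tell a change of Cebpd from the change of Cebpa.

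Cebpe, the late granulocyte factor (chr14:54710360-54712174, minus strand), was at 4.7 and 2.8 normalised counts in NA1 and NA2, at 2.3 in WT3 and at 0 in the other 5 libraries. No library held more than 5 estimated reads. A difference in Cebpe was not detectable at this depth.

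Trib1 encodes a pseudokinase that hands C/EBPα to COP1 in myeloid cells (chr15:59648350-59657099, plus strand). Its normalised counts were 60.7, 136.3, 203.1 and 118.1 in NA1 to NA4 and 16.9, 215.2, 108.2 and 94.1 in WT1 to WT4. The range of the NA libraries lay within that of the WT libraries, and WT1 and WT2 formed both extremes. The log2 fold change was 0.59, with a 95% interval from -0.63 to 1.81 and an adjusted p of 0.507 by limma. It was -0.13 without WT1, so its sign rests on that library.

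Trib2, which shares this role (chr12:15791727-15816922, minus strand), was at 118.6, 164.5, 181.0 and 155.9 normalised counts in NA1 to NA4 and at 127.0, 130.2, 225.4 and 170.5 in WT1 to WT4. WT3 was the highest library and NA1 the lowest. The log2 fold change of -0.05 had a 95% interval from -0.48 to 0.38 (adjusted p = 0.887 by limma), and it turned positive without NA1 (0.07) or WT3 (0.12). The log2 ratio of Trib1 to Trib2 differed by 0.64 between the groups (exact two-sided permutation p = 0.486).

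**Figure D2:**
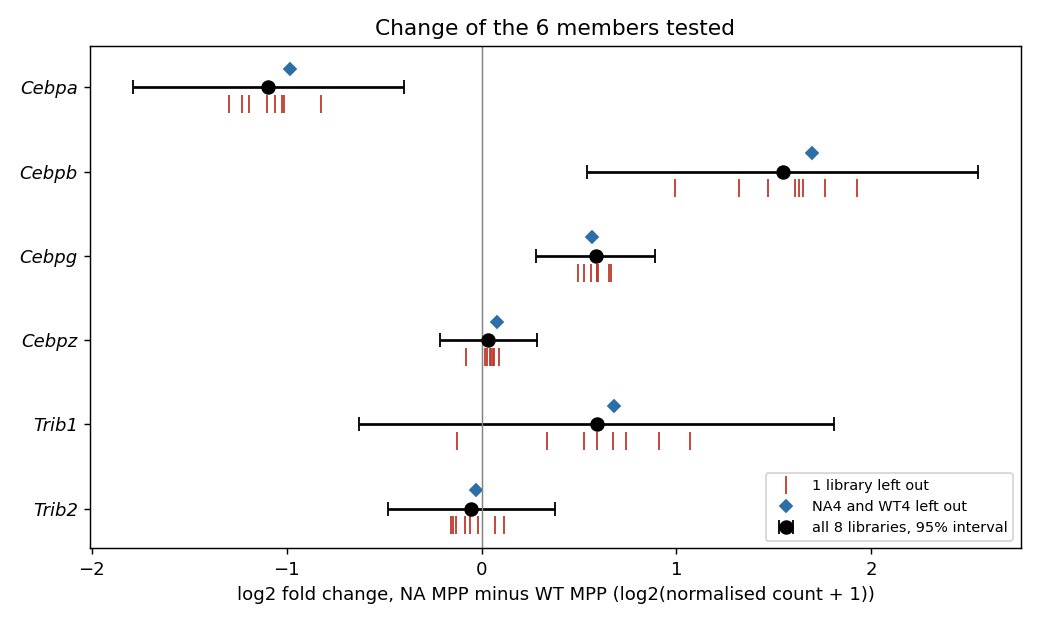
Log2 fold change of NA over WT MPPs (horizontal axis, on log2(normalised count + 1)) for the 6 members tested. Circles with bars are the estimates from all 8 libraries with 95% intervals, ticks are the fits that leave out 1 library, and diamonds are the fit without NA4 and WT4. Cebpa stays negative and Cebpb and Cebpg stay positive in every fit drawn, while Trib1, Trib2 and Cebpz cross 0.

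Cebpb and Trib1 were high and low in the same libraries of each group. After the group means were removed, Pearson r of the pair over the 8 libraries was 0.992 on the log2 scale, and Trib1 ranked first for likeness to Cebpb among 9000 genes of sufficient level (mean of 50 normalised counts or more). This pair was singled out after the values had been seen, so r is a description. It was 0.972 without WT1 and 0.9996 without NA4 and WT4. The next genes in the order were Sde2 (0.989), Siah2 (0.983), Nrarp (0.982) and Nr4a2 (0.981). Pearson r of Cebpb was -0.24 with Cebpa, -0.49 with Cebpg, -0.15 with Cebpz and 0.43 with Trib2.

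Relative to Trib1, the NA libraries held more Cebpb. The log2 ratio of Cebpb to Trib1 was 0.15, -0.13, -0.26 and -0.41 in NA1 to NA4 and -0.62, -1.41, -1.27 and -1.18 in WT1 to WT4. The ranges did not overlap, with WT1 closest to the NA group. The means differed by 0.95, and this ratio, also chosen after the values had been seen, was not tested.

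**Figure D3:**
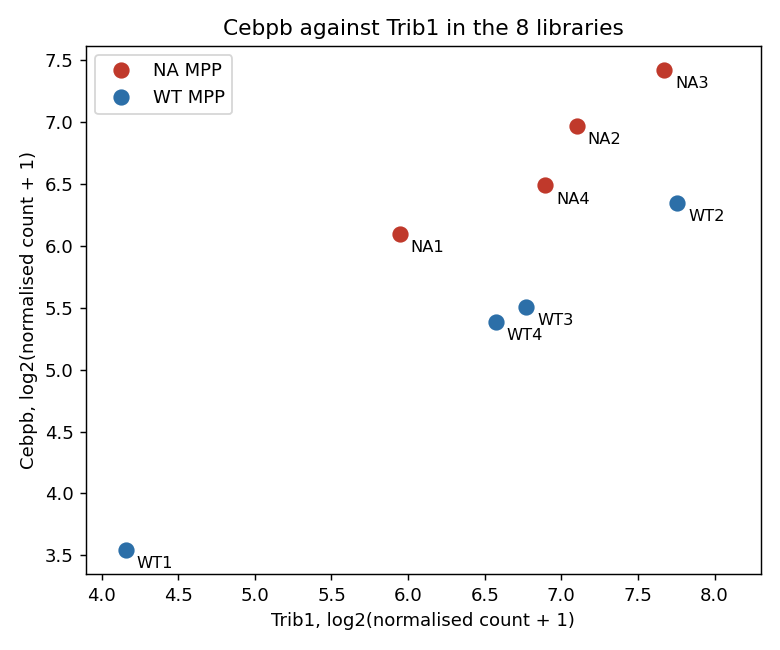
Cebpb (vertical axis) against Trib1 (horizontal axis), both as log2(normalised count + 1), with a labelled point for each of the 8 libraries. Within each group the points rise together, WT1 lies at the lower left, and the NA points lie above the WT points of like Trib1 level.

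Several genes of the early response to signals and stress followed a similar order of libraries. After removal of the group means, Pearson r with Cebpb over the 8 libraries was 0.980 for Klf4, 0.975 for Egr2, 0.958 for Junb, 0.954 for Ddit3, 0.927 for Egr1, 0.922 for Zfp36, 0.892 for Atf3, 0.863 for Fos and 0.762 for Jun. Part of this rested on WT1, since without it r was 0.953 for Klf4 and 0.961 for Ddit3 but 0.417 for Fos and 0.0975 for Jun. Klf4 illustrates the order, with 120.4, 259.4, 328.7 and 223.2 normalised counts in NA1 to NA4 and 7.1, 201.6, 86.5 and 73.7 in WT1 to WT4. Jun did not follow it within the NA group, at 1222, 1185, 1112 and 1082 in NA1 to NA4. Early-response genes respond to the handling of cells as well as to signals in the animal, and the part of handling in the Cebpb difference was not tested. WT1 was the lowest of the 8 libraries for 22 of 80 tested genes of the 6 lists below (27.5%), against 12.5% of all genes tested. Most genes called in these lists were higher in NA, so their lowest value tends to fall in a WT library. The share over all genes is therefore not a like comparison, and whether WT1 stands out in these lists was not tested.

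The genes of most similar pattern between libraries were also sought for Cebpg and Cebpz, the 2 members with the highest normalised counts before any correction for length. Cebpg was closest to Herc6 (r = 0.984), Galm (0.978) and Tmem140 (0.972), and Cebpz to Zbed3 (0.974), Cdc40 (0.971) and Bccip (0.969), each over 8 libraries after removal of the group means.

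Levels were also compared between members per kb of annotated exon. In WT MPPs the mean level in normalised counts per kb was 98.4 ± 14.4 for Cebpz, 37.7 ± 10.6 for Trib2, 33.0 ± 4.4 for Cebpg, 29.3 ± 19.0 for Cebpb, 22.3 ± 4.4 for Cebpa, 17.4 ± 13.1 for Trib1, 0.777 ± 0.276 for Cebpd and 0.459 ± 0.917 for Cebpe (SD, n = 4). In this order the ranges of neighbours overlapped, except between Cebpz and Trib2 and between Trib1 and Cebpd. In NA MPPs the order was Cebpz (99.9 ± 2.7), Cebpb (74.8 ± 29.9), Cebpg (49.5 ± 5.8), Trib2 (35.8 ± 6.1), Trib1 (20.7 ± 9.4), Cebpa (10.8 ± 4.3), Cebpe (1.51 ± 1.84) and Cebpd (1.46 ± 1.66). Only Cebpg and Trib2 and then Cebpa and Cebpe were neighbours whose ranges did not overlap. By these means Cebpb stood above Cebpg in NA and below it in WT, but Cebpb was the higher in 3 of 4 NA libraries and Cebpg in 2 of 4 WT libraries. Likewise Trib1 exceeded Cebpa in 3 of 4 NA libraries and Cebpa exceeded Trib1 in 2 of 4 WT libraries, so the WT order of these neighbours is not resolved.

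Overlap with other genes limits some of these values, because the sources do not say whether counting used strand. The annotated exons of Cebpb overlap those of Tmem189 on the opposite strand by 312 bases, and Tmem189 did not follow Cebpb, with 225.3 to 285.6 normalised counts in NA and 257.5 to 342.7 in WT (log2 fold change -0.10, adjusted p = 0.642 by limma). Cebpd shares 562 exonic bases with Spidr, which was at 113.2 to 161.8 in 7 libraries and 84.2 in WT3 (log2 fold change 0.32, adjusted p = 0.244 by limma). Cebpz shares 171 with Cebpzos, whose log2 fold change was 0.30 (adjusted p = 0.315 by limma).

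Among dimer partners and bZIP relatives, more genes were higher than lower in NA MPPs. Of 15 genes, 13 were tested, 5 were higher, 1 was lower, and the median log2 fold change was 0.74. The share called was 46.2%, against 17.9% of all genes tested. This list and those below were chosen with earlier results of these data known. Fos, the partner of JUN in AP-1, showed by far the highest level in NA, with a log2 fold change of 3.37 ± 0.31 (SE) and an adjusted p of 7.46e-06 by limma. Jun changed by 1.17 ± 0.21 (adjusted p = 0.0021) and Jund by 1.02 ± 0.25 (adjusted p = 0.0133). Batf, a bZIP factor of lymphocytes, was the only member of this list called lower, at -0.79 ± 0.20 (adjusted p = 0.0141). Without NA4 and WT4 Batf was not called (adjusted p = 0.0926 by limma). The stress gene Ddit3, whose product binds C/EBP proteins and blocks their DNA binding, was at 366.9 to 620.5 normalised counts in NA and 164.2 to 519.8 in WT, and its log2 fold change of 0.74 was not called (adjusted p = 0.0694).

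Transcription factors that act upstream of or beside C/EBP proteins were also called higher more often than lower. Of 20 genes, 19 were tested, 10 were higher and 1 was lower, with a median log2 fold change of 0.49. This was 57.9% called, against 17.9% of all genes tested. The highest were Egr1 at 2.64 ± 0.19 (SE, adjusted p = 7e-07), Egr2 at 2.40 ± 0.73 (adjusted p = 0.0355) and Sox4 at 2.12 ± 0.09 (adjusted p = 1.46e-09), all by limma. Egr2 was low, with 11.2 to 52.6 normalised counts in NA and 0 to 11.3 in WT, and its groups overlapped. Its call was lost without NA4 and WT4 (adjusted p = 0.158 by limma) and in 6 of the 8 fits that left out 1 library. Irf8, which directs cells to monocytes and dendritic cells, was at 30.8, 13.2, 25.9 and 24.8 normalised counts in NA1 to NA4 and 37.3, 49.8, 58.1 and 50.6 in WT1 to WT4. Its ranges did not overlap, as with Cebpa, and the log2 fold change was -1.06 ± 0.32 (adjusted p = 0.0335 by limma), with no call without NA4 and WT4 (adjusted p = 0.186). Spi1 and Runx1, which act with Cebpa in myeloid commitment, were not called, at -0.17 and 0.13. Without NA4 and WT4 6 of this list were called instead of 11.

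The degradation machinery and the MAPK kinases that TRIB proteins bind held 2 genes called higher and 1 called lower of 14 tested, with a median log2 fold change of -0.06. These calls were 21.4% of the list, close to the 17.9% of all genes tested. Gsk3b, a kinase that phosphorylates C/EBP proteins, was higher by 0.68 ± 0.12 (SE, adjusted p = 0.0017), and Fbxw7, a ubiquitin ligase subunit, by 0.54 ± 0.15 (adjusted p = 0.0252). Ddb1, an adaptor of cullin 4 ligases, was lower at -0.55 ± 0.11 (adjusted p = 0.0037, all by limma). Fbxw7 lost its call without NA4 and WT4 (adjusted p = 0.1395 by limma) and in 3 of the 8 fits that left out 1 library. Cop1, the ligase that TRIB1 and TRIB2 recruit, was at 261.3 to 436.2 normalised counts in NA and 249.5 to 329.5 in WT and was not called (log2 fold change 0.22).

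Among 12 RNA-binding and translation factors listed for action on C/EBP mRNAs, all were tested, 5 were higher (41.7%) and none was lower. Over all genes tested, 10.1% were called higher and 7.87% lower. The median log2 fold change of the list was 0.29. Msi2 was higher by 0.72 ± 0.10 (SE, adjusted p = 0.000244), Zfp36l1 by 0.70 ± 0.23 (adjusted p = 0.0457) and Zfp36, which destabilises mRNAs of the early response, by 0.64 ± 0.17 (adjusted p = 0.0222, all by limma). Without NA4 and WT4 2 of the 12 were called, and Zfp36l1 (adjusted p = 0.233 by limma) and Zfp36 (0.116) were not. Of the 8 fits that left out 1 library, Zfp36l1 lost its call in 7 and Zfp36 in 3.

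Granulocyte and monocyte genes known to be bound by C/EBP factors were mostly too low to test. Of 32 genes, 12 were tested, none was higher and 2 were lower, and the median log2 fold change was -0.38. The 2 calls were 16.7% of those tested, near the 17.9% of all genes. Mpo, the myeloperoxidase of granules, was at 18.7, 6.6, 6.5 and 21.3 normalised counts in NA1 to NA4 and 17.8, 35.1, 52.4 and 42.6 in WT1 to WT4. Its groups overlapped at WT1, and the log2 fold change was -1.50 ± 0.48 (SE, adjusted p = 0.0422 by limma). Prtn3, a granule protease, was more abundant, at 1371 to 1677 in NA and 1711 to 2291 in WT, and was lower by -0.41 ± 0.11 on the log2 scale (adjusted p = 0.0181 by limma). Neither call held without NA4 and WT4 (adjusted p = 0.143 and 0.0881). Elane was at 0 in all libraries, and Csf3r, the receptor for the granulocyte growth factor, was not called (log2 fold change -0.36). S100a9, made in large amounts by maturing neutrophils, was at 158.3 normalised counts in WT3 and 47.9 in WT4 and at most 18.5 in the other 6 libraries, and the part of such cells in this list was not tested.

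Proliferation genes that C/EBPα restrains split in direction. Of 12 genes, 11 were tested, 6 were higher and 3 were lower, with a median log2 fold change of 0.52. This was 81.8% called, against 17.9% of all genes tested. Sox4, also in the list of transcription factors, led this list at 2.12. Cdk2 was higher by 1.64 ± 0.19 (SE, adjusted p = 5.69e-05) and Myc by 1.04 ± 0.19 (adjusted p = 0.0018). Mycn was lower at -0.76 ± 0.16 (adjusted p = 0.0043), Ccnd3 at -0.42 ± 0.14 (adjusted p = 0.0466) and Cdk4 at -0.39 ± 0.09 (adjusted p = 0.009, all by limma). The E2F partners of this pathway gave no single direction either, with E2f3 at 0.68 and called and E2f1 at -0.95 and not called. Without NA4 and WT4 6 of this list were called instead of 9. Mycn then kept its call (adjusted p = 0.0352 by limma), while Ccnd3 (0.1945), Cdk4 (0.078) and the higher gene E2f3 (0.0918) did not. Ccnd3, whose groups overlapped, also lost its call in 7 of the 8 fits that left out 1 library.

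**Figure D4:**
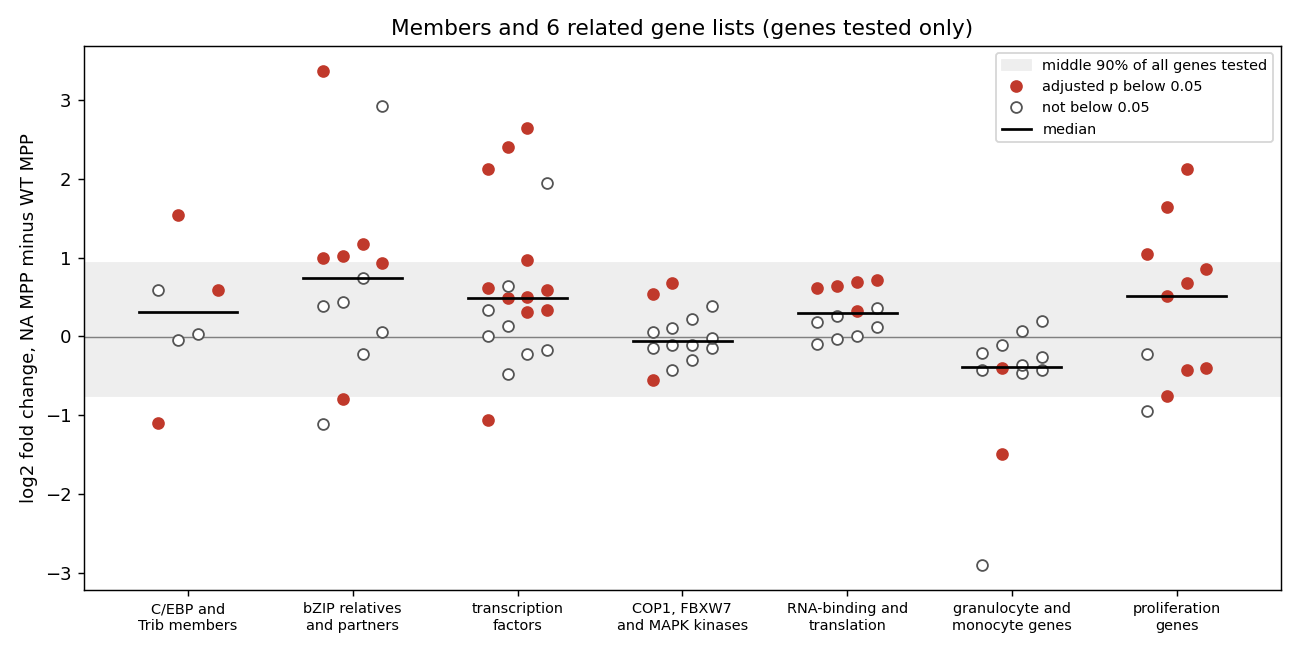
Log2 fold change of NA over WT MPPs (vertical axis) for the tested genes of the members and of 6 related lists (horizontal axis). Filled points have an adjusted p below 0.05 by limma, open points do not, black lines are medians, and the grey band from -0.76 to 0.93 holds the middle 90% of all genes tested. Fos, Egr1, Egr2 and Sox4 lie far above the band, and the granulocyte and monocyte genes lie mostly below 0.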

How the data were processed

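RNA of 8 libraries, 4 NA MPP and 4 WT MPP, was grouped by the sample titles. Per the submitters' processing notes, reads were demultiplexed with bcl2fastq, quantified with RSEM against mm10 and tested with DESeq2, whose versions are not given in the sources used here. cDNA of each 1000-cell aliquot was amplified before a Nextera XT library was made, so reads are not independent molecules. Although its name says raw counts, the deposited table holds a normalised signal, since the authors had divided RSEM's expected counts by 1 factor for each library. In each library 98.2% to 98.7% of the low values fell on multiples of a single step (tolerance 0.02), and estimated reads are values divided by that step. Of the table's columns, 0 were left unused. DESeq2 was not run here because values below 1 read were fractional.

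Values were tested as log2(normalised count + 1) with limma 3.58.1 in R 4.3.3, with a mean-variance trend and no covariate, on the 11451 genes that reached 10 normalised counts in 4 libraries or more. The Benjamini-Hochberg adjustment covered all of these genes, with a threshold of 0.05. Fold changes on this scale understate those of low genes. The limma fit was also run on simulated data with independent errors in every library. That simulation does not cover libraries as close to the others of their group as NA4 and WT4. Ratios of members were tested exactly over 70 assignments with scipy 1.17.1. Gene names, exons and coordinates came from GENCODE M21 (GRCm38), which named 93.8% of the rows above 0 in any library, and promoter sequences from RefSeq GRCm38.p6, which held 4 of the 8 members. Proteins were not analysed here.

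The members and lists were chosen with earlier results of these data known. All members were named, and of each list the called genes with the 3 highest and 3 lowest log2 fold changes. For the 2 members with the highest normalised counts the 3 most similar genes were named, by Pearson r of deviations from the group means among genes with a mean of at least 50. Genes that overlap or adjoin a member and sex-linked genes were also named. Other genes in the text, the likeness of Cebpb, its ratio to Trib1 and 3 of the motifs were chosen after the data had been seen.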

Additional observations from a re-analysis of the deposited data

Results flagged for a closer look

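In 2 of the 22 groups of 4 libraries checked, 1 library lay far from the other 3, where chance flags about 1 in 20 groups. Cebpd was at 14.77 normalised counts in NA3 and between 1.867 and 2.82 in the other NA libraries. Cebpe was at 2.277 normalised counts in WT3 and at 0 in the other WT libraries, which is 2 estimated reads and below the 3 reads that a count of 0 allows.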

How the results depend on the processing

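Depth limits Cebpd and Cebpe, which held at most 16 and 5 estimated reads in any library, and no alternative can separate sex from genotype. Of 348 values recomputed under the alternatives, 284 were counted as unchanged. Tested genes and ratios among these kept their direction and side of the threshold, and counts stayed within 1.5 times. Values of Cebpd and Cebpe, outside the main test, were always counted as unchanged, although the log2 fold change of Cebpd turned from 0.36 to -0.20 without NA3. The planned tests on whole reads with edgeR and DESeq2 were not run, because whole reads could not be recovered for values below 1 read.

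Leaving out NA4 and WT4 left 524 called genes, with 6 transcription factors, 2 RNA-binding factors and 0 C/EBP-bound genes (3 at an unadjusted p below 0.05). By limma 0 of the 6 tested members were then called, 3 of them at an unadjusted p below 0.05. Their log2 fold changes were -0.98 for Cebpa, 1.69 for Cebpb and 0.57 for Cebpg, with adjusted p of 0.229, 0.114 and 0.116. Without WT1 as well, an alternative chosen after seeing the data, 0 members were called (2 at an unadjusted p below 0.05), these values were -0.96, 0.90 and 0.68, and Trib1 was at -0.36. Leaving out NA1 or NA3 alone gave 2134 and 2176 called genes, and leaving out NA4 or WT4 alone gave 1125 and 1279. Fewer libraries make a test weaker, and NA4 and WT4 were close to weighted sums of the other libraries. The part of either in the loss of calls was not tested.

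Without the low-value filter 1 member was called, Cebpa stayed at -1.09 (adjusted p = 0.0777) and Cebpb at 1.54 (adjusted p = 0.122), and 6 transcription factors, 3 RNA-binding factors and 0 C/EBP-bound genes were called by limma (7 of 30 of the last at an unadjusted p below 0.05). Without the variance trend Cebpb stayed at 1.54 (adjusted p = 0.107), and the same lists held 7, 2 and 0 calls (4 of the last at an unadjusted p below 0.05). GC correction gave Cebpa -0.858 and Cebpz -0.0644, with 3 RNA-binding factors and 0 C/EBP-bound genes called (3 at an unadjusted p below 0.05). A mean of at least 50 and the depth class as a covariate each left 1 C/EBP-bound gene called. Scaling by total counts turned Cebpz to -0.0341 and called 2240 genes, 41.4% of them higher, against 56.1% of 2053 in the test as reported.

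Leaving out 1 library at a time gave 1125 to 2176 called genes (1125 without NA4 and 1279 without WT4) and 1 to 3 called members (1 without NA3, NA4, WT1 or WT4). Called transcription factors then numbered 6 to 12, RNA-binding factors 3 to 5 and C/EBP-bound genes 0 to 3. Log2 fold changes ranged from -1.30 to -0.82 for Cebpa, 0.99 to 1.93 for Cebpb, -0.0773 to 0.0914 for Cebpz, -0.13 to 1.07 for Trib1 and -0.16 to 0.12 for Trib2. The Cebpb to Cebpa log2 ratio ranged from 2.10 to 3.06 and the Cebpd to Cebpa ratio from 0.62 to 1.92. Both were largest without NA1, where each passed the threshold (adjusted p = 0.0429 by exact permutation), and neither passed in the other fits that left out 1 library. There the adjusted p of the Cebpb to Cebpa ratio was 0.0857 or 0.171. It was 0.3 without NA4 and WT4 and 0.188 with the library number as a replicate block, also by exact permutation. The counts for partners, proliferation genes and degradation genes stayed within 1.5 times in the alternatives run for them, except that without NA4, WT4 and WT1 none of the 14 degradation genes was called by limma (0, with 3 at an unadjusted p below 0.05), against 3 with all libraries.

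With the library number as a replicate block 2004 genes and 3 members were called, with Cebpb at an adjusted p of 0.00792 by limma. Libraries of the same number did not clearly deviate together, with r of 0.0874, 0.0271, 0.0131 and 0.158 for numbers 1 to 4, and those numbered 1 and 4 alone were most like their own number. No call of a member changed under the block, and the numbers are not treated as pairs.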

Other observations

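Cd48, a surface protein that the sort selected against, was at 12.2 to 22.4 normalised counts in NA MPPs and 34.2 to 83.8 in WT MPPs, with no overlap between the groups. Its log2 fold change was -1.58 ± 0.35 (SE, n = 4 each, adjusted p = 0.00712 by limma), and the adjusted p was 0.0675 without NA4 and WT4. Hlf, a bZIP factor of stem cells outside the C/EBP family, was at 3872 to 4473 in NA and 2061 to 2280 in WT, a log2 fold change of 0.93 ± 0.07 (SE, n = 4 each, adjusted p = 1.86e-06 by limma) that was called in all 8 fits without 1 library and without NA4 and WT4 (adjusted p = 0.00011). Gfi1, a repressor that acts with C/EBP factors in granulocyte formation, was at 493.8 to 532.7 in NA and 301.8 to 360.1 in WT, with a log2 fold change of 0.61 ± 0.10 (SE, n = 4 each, adjusted p = 0.00102 by limma). These 3 genes were chosen after their values had been seen.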
